A study of Mus musculus with 12 samples.

Results

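Ubiquitin-specific proteases of the Usp family were followed in mouse muscle stem cells (MuSCs), the Pax7-expressing cells that repair skeletal muscle. Members were all genes whose symbol is Usp followed by a number, with optional trailing letters and digits. Usp18 and Usp9y were left out. This gave 49 genes of the 16503 listed in the table of freshly sorted MuSCs and cultured myoblasts, and 48 of the 16169 listed in the table of WT and Nedd4L-cKO MuSCs, where Usp43 was not listed. Of these, 49 and 47 were tested, which required 10 or more normalized counts in 3 or more libraries of the table. Usp17lc, a member of the Usp17-like cluster, was listed in the genotype table but was below this limit, at 0.108 to 0.329 RPM in WT and 0.026 to 0.255 RPM in Nedd4L-cKO MuSCs.

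Ubiquitin is a small protein that is joined to other proteins, often as chains that mark them for the proteasome. Deubiquitinases cut it off again, and the Usp genes code for the largest deubiquitinase family in mammals. They recycle ubiquitin at the proteasome, edit ubiquitin on histones and receptors, and oppose E3 ligases such as Nedd4L. Matching by symbol has exceptions to this function: Usp6nl codes for a Rab GTPase activator, Usp39 for a splicing factor without deubiquitinase activity, and Usp50, Usp53 and Usp54 have long been regarded as inactive or weakly active.

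RNA was sequenced with SMART-Seq from 1000 sorted cells per library, in 12 libraries. The Fresh MuSC and Myoblast groups were taken to come from the same 3 WT mice (replicates 04, 05 and 06). Their labels share the numbers 18, 52 and 53, and reading these as mice is an inference. For each number there were freshly isolated MuSCs and myoblasts grown for 3 days in growth medium with serum and bFGF. The WT MuSC and Nedd4L-cKO MuSC groups had 3 mice each (replicates 01, 02 and 03), which were different animals, male and aged 5 to 6 weeks. The cKO mice were Nedd4L fl/fl Pax7 cre/+ on a C57BL/6 background, in which exon 15 of Nedd4l is removed in cells that express Pax7 and a transcript is still made, and WT mice are described no further in the labels. All MuSCs had been sorted from hindlimb muscle as ITGA7+ and Hoechst+ cells without CD31, CD45, CD11b and SCA1. Pax7 driving the Cre means that all Pax7-expressing cells, and cells derived from them, carry the deletion.

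Values are given as RPM, here the authors' normalized counts divided by the mean of the 6 library totals of the table and multiplied by 1000000. This keeps the authors' scaling between libraries. Read depth is unknown, since normalized counts and not reads were used, and totals were 33189802 to 37595659 normalized counts in the first table and 40323468 to 50687122 in the second. Nedd4l itself was at 70.2, 96.4 and 66.7 RPM in WT and at 30.2, 36.3 and 22.5 RPM in Nedd4L-cKO MuSCs (log2 fold change -1.37 ± 0.28, SE; limma adjusted p = 0.0467). This call passed in 4 of 13 alternative settings, with adjusted p up to 0.197 without WT 02. Pax7 was at 151 to 249 RPM in Fresh MuSCs and at 17.8 to 21.2 RPM in Myoblasts, and Myod1 was at 167 to 188 and 1000 to 1800 RPM. Of 8 MuSC markers 7 fell in Myoblasts, and Itga7, used in the sort, was not called (log2 fold change 0.55, limma adjusted p = 0.0830). Of 6 genes listed as myoblast markers, Myod1 and the differentiation gene Myog rose. Myog was already at 524 to 732 RPM in Fresh MuSCs, against 3344 to 4521 RPM in Myoblasts. The cell division genes Mki67, Top2a, Ccnb1 and Cdk1 were not called, with overlapping groups. Mki67 was at 66.5 to 110 RPM in Fresh MuSCs and 49.2 to 102 RPM in Myoblasts, and Ccnb1 at 98.4 to 222 and 138 to 321 RPM, so transcripts of cell division genes were present in both groups. By the test used for all genes, 6 of 7 markers of mature muscle fibers rose in Myoblasts, with a summed level of 152 to 400 RPM in Fresh MuSCs and 9527 to 22240 RPM in Myoblasts. Of 6 fibroblast markers 3 fell and 1 rose, with sums of 1623 to 1885 and 121 to 190 RPM that were mostly Col3a1. The 4 listed immune markers, which include the gene for CD45, summed to at most 5.62 RPM in any library. In the first table Cdh5 was at most 0.356 RPM, and the other listed endothelial markers were Tek, which fell, and Pecam1. The part of these other transcripts in the results was not tested.

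Promoter sequences of a few members that changed are shown first, so that their letters can be set beside the values that follow. RefSeq windows (GRCm38.p6) running from 250 bases before to 50 bases after a transcription start were at hand for 38 members, among them 18 of the 23 that changed between myoblasts and MuSCs. The printed windows belong to the called genes with the smallest p in each direction that had a single window, at least 150 bases before the first start of the gene, and no 31-base stretch of an annotated transcript. Usp48 fell, and Usp11 and Usp30 rose. Each is the plus strand, 5′ to 3′, and capitals mark motif matches on either strand.
Usp48, chr4:137593922-137594119: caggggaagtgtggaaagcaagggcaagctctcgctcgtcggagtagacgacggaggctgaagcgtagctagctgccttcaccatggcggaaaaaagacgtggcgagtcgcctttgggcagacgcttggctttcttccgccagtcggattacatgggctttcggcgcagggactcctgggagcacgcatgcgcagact
Usp11, chrX:20703659-20703908: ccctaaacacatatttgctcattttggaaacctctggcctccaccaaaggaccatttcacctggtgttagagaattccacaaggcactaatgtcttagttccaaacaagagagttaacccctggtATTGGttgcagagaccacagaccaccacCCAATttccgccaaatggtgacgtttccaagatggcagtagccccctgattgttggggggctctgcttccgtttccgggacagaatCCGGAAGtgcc
Usp30, chr5:114100083-114100298: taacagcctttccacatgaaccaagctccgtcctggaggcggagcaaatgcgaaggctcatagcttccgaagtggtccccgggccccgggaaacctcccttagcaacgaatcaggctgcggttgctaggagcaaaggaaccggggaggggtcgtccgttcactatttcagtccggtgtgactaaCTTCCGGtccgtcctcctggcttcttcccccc

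The full windows were searched for 5 motifs, on both strands and without regard to overlap. A member was counted when any of its windows held the motif, whereas the share over all windows counts each window singly. The counts and these shares are therefore not like for like. The GC box GGGCGG was found for 10 of the 11 members with a window that rose and for 3 of the 7 that fell. It was found for 13 of 20 members that did not pass the test, and in 35.7% of all 32851 windows. The ETS core CCGGAAG was in 5 of 11 and 1 of 7 (8.86% of all windows), and the E-box CAGCTG in 4 of 11 and 0 of 7 (16.3%). CCAAT was in 3 of 11 and 1 of 7 (37.4%), and TGACGTCA in none of the 18 (1.79%). The median GC content was 64.3% over the windows of the members called and 52.7% over all windows. These are descriptions of letters in short windows, with no test.

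To place the members within freshly isolated cells, levels were compared per kilobase of exonic length in Fresh MuSCs. Usp22 stood first by a wide margin. It codes for the deubiquitinase of the SAGA coactivator complex, which removes ubiquitin from histone H2B. Its level was 138 to 210 RPM per kb in the 3 libraries. Usp14, the deubiquitinase that binds reversibly to the proteasome, came next at 23.1 to 28.6 RPM per kb. The ranges of these neighbours did not overlap.

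Means of the next 6 genes on this scale lay between 9.43 and 16.3 RPM per kb, with every neighbouring pair overlapping. In order they were Usp2 (16.3), Usp16 (14.6), Usp48 (14.0), Usp37, Usp8 (11.2) and Usp1 (9.43). Of the 48 neighbouring pairs in the whole order, 2 did not overlap: Usp22 with Usp14, and Usp24 with Usp30, where the order drops from a mean of 1.36 to 0.694 RPM per kb. The lowest 5 were Usp17la (0.180), Usp43 (0.105), Usp44 (0.102), Usp17lc (0.0899) and Usp27x (0.0574). Usp43 was at 1.6 RPM in replicate 04 and listed at 0 in the other two MuSC libraries.

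The order in the WT MuSCs of the other cohort was close to this one, with a Spearman rho of 0.957 across 47 genes, which share a scale and gene lengths and are not replicates. Of the 8 highest genes, 7 were the same. Usp22 was again first, at 132 ± 37.6 RPM per kb (SD, n = 3), followed by Usp14 at 22.6 ± 3.48.

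**Figure D1:**
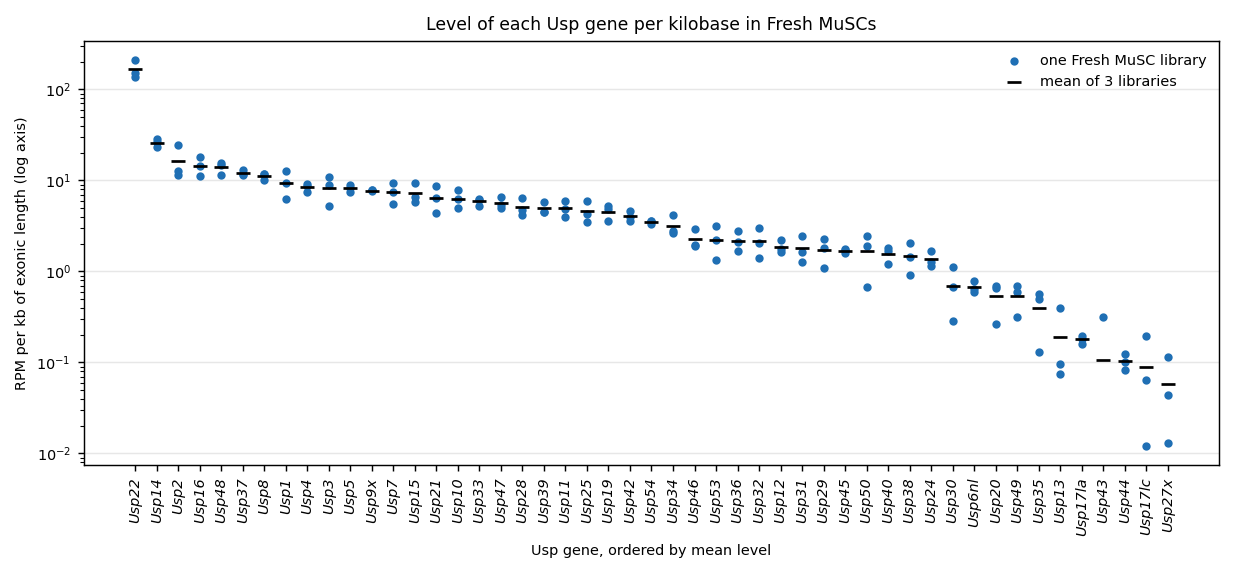
Level of the 49 Usp genes in Fresh MuSCs, in RPM per kb of exonic length on a log axis, with a point for each of 3 libraries and a bar for their mean. Usp22 sits apart at 138 to 210 RPM per kb, and the 2 libraries with Usp43 at 0 are not drawn.

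Some of these levels rest on sequence that is not particular to the gene. In 19 members more than 10% of the 31-base stretches of their transcripts also occur in transcripts of other genes. Usp14 shares 44.7%, all with Thoc1, and Usp44 shares 42.7% with Metap2. Usp38 shares 44.5%, Usp49 46.8%, Usp33 37.5%, and Usp17lc 59.0%, mostly with Usp17ld. Usp22 shares 0.133%, Usp48 2.68% and Usp5 4.47%. Estimated counts could be divided between such genes either way, so levels of the former group are uncertain. Usp8 (chr2:126549083-126601234, plus strand) and Usp50 (chr2:126551016-126625403, minus strand; GRCm39) overlap on opposite strands. The library kit does not mark strand, so reads from transcript sequence that both share cannot be told apart. Little such sequence was found, as Usp8 shares 0.991% and Usp50 1.08% of their 31-base stretches with any other gene.

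The first comparison asks which Usp genes differ between freshly isolated MuSCs and the myoblasts grown from them. Usp22 fell from a mean of 826 to 163 RPM and Usp48 from 135 to 34.5 RPM. Usp5 rose from 41.0 to 170 RPM, and Usp13 and Usp20 rose from 2.46 and 5.37 RPM to 34.9 and 59.0 RPM. In all, 13 members rose and 10 fell, and 26 did not pass the test. A call was an adjusted p of at most 0.05 in limma on log2(RPM + 1), with Benjamini-Hochberg adjustment over all 15345 genes tested. The 23 called members were 46.9% of the 49, and 42.8% of all genes tested were called. Higher calls were 26.5% of members against 22.2% of all genes, and lower calls 20.4% against 20.6%. The family as a whole was therefore near the background in both directions. Its median log2 fold change was 0.04, as was that of all genes. The count was 14 without Fresh MuSC 05 and 15 without Myoblast 05. Over all genes tested it also fell, from 6566 to 5019 and 4593. In at least 1 alternative setting 10 of the 23 were not called, with adjusted p reaching 0.0509 for Usp30, 0.0667 for Usp45, 0.0705 for Usp9x, 0.0760 for Usp7, 0.0884 for Usp39, 0.0959 for Usp37, 0.122 for Usp8 and Usp47, 0.140 for Usp21 and 0.159 for Usp38. Here and below, fewer cells of a type and less RNA per cell cannot be told apart in bulk libraries.

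**Figure D2:**
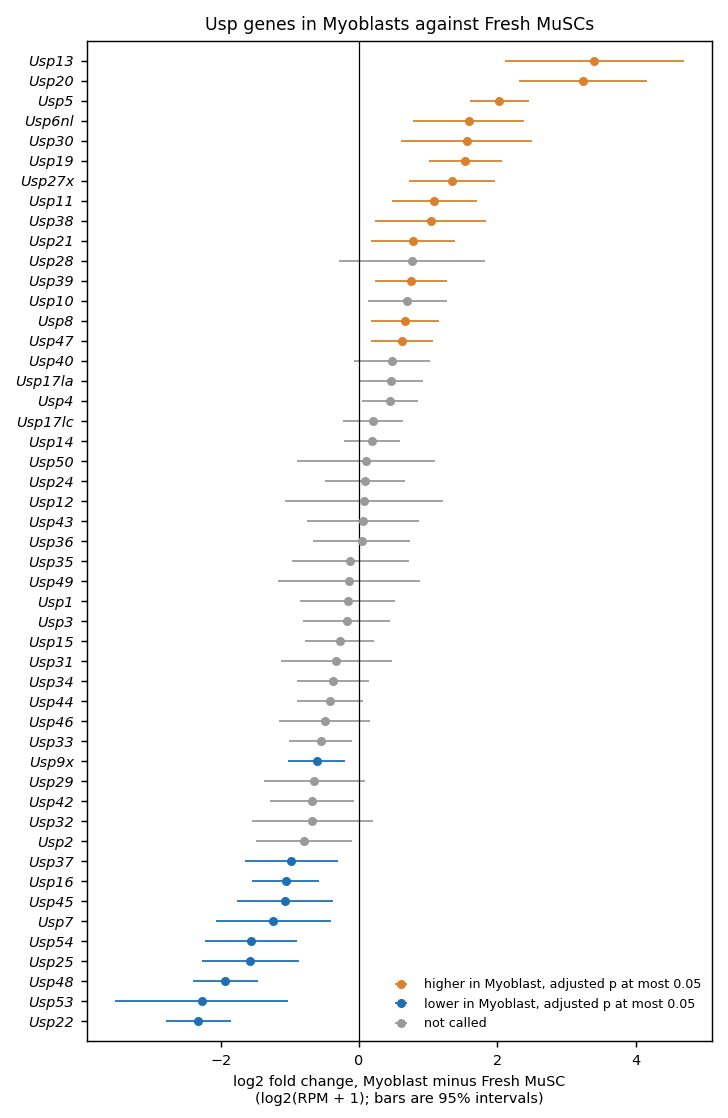
Log2 fold change of each of 49 Usp genes, Myoblast minus Fresh MuSC, on log2(RPM + 1), with 95% limma intervals. The values run from -2.32 for Usp22 to 3.40 for Usp13, with 13 called higher (orange), 10 called lower (blue) and 26 not called (grey).

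Members are taken by role from here on, with roles set by a fixed list. Counts by role were not tested, and 22.2% of all genes tested were called higher and 20.6% lower. Among the 6 genes for ubiquitin recycling, the proteasome and organelles, 4 rose and 1 fell. Usp5 (chr6:124791976-124806476, minus strand; GRCm39) takes apart free ubiquitin chains. It was at 44.7, 37.0 and 41.2 RPM in Fresh MuSCs and at 169, 185 and 157 RPM in Myoblasts. Every myoblast library was well above every MuSC library, and the log2 difference in limma was 2.03 ± 0.19 (SE, adjusted p = 5.62e-05). Its closest relative Usp13 (chr3:32871466-32992223, plus strand) was at 1.25, 0.955 and 5.17 RPM in Fresh MuSCs and at 14.3, 39.6 and 50.7 RPM in Myoblasts. The groups did not overlap, although the myoblast libraries differed among themselves by several fold. Its log2 fold change was 3.40 ± 0.57 (adjusted p = 0.00165), the highest of the family.

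Usp19, which is anchored in the endoplasmic reticulum and is known from muscle wasting, rose from 25.6 to 36.9 RPM in Fresh MuSCs to 79.1 to 111 RPM in Myoblasts (log2 fold change 1.54 ± 0.23, adjusted p = 0.000924). Usp30, which sits on the mitochondrial outer membrane and opposes mitophagy, rose from 1.94 to 7.72 RPM to 12.6 to 15.5 RPM (1.56 ± 0.42, adjusted p = 0.0157). Without Myoblast 05 its adjusted p was 0.0509. Usp25 went the other way, from 33.8, 19.4 and 24.3 RPM to 6.11, 8.53 and 9.11 RPM (-1.57 ± 0.31, adjusted p = 0.00383). The MuSC and myoblast ranges of all of these genes were apart. Usp14 was not called, at 212 to 263 RPM in Fresh MuSCs and 242 to 307 RPM in Myoblasts, with a 95% interval of the log2 fold change from -0.22 to 0.59.

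The 9 genes that act on chromatin and histones held the largest decrease. Usp22 (chr11:61042611-61065886, minus strand) was at 1040, 682 and 757 RPM in Fresh MuSCs and at 143, 188 and 158 RPM in Myoblasts. All 3 pairs of libraries with the same number showed the drop, and the lowest MuSC library was far above the highest myoblast library. Its log2 fold change was -2.32 ± 0.21 (adjusted p = 5.41e-05). Its paralog Usp27x, which can use the same activating partners, was at 0.495, 0.186 and 0.0559 RPM in Fresh MuSCs and at 1.29, 2.85 and 2.47 RPM in Myoblasts. The groups were apart, but both were very low. The log2 fold change was 1.34 ± 0.27 (adjusted p = 0.00438), on a scale that understates changes this close to 0. Usp27x met the filter for testing only through the Myoblast libraries. Its call therefore depends on the group where it is higher.

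Of the partners in the H2B deubiquitinase module, Atxn7l3 was called higher, from 2.18 to 4.95 RPM to 4.85 to 9.83 RPM, with overlapping groups (1.11 ± 0.40, adjusted p = 0.0482). It passed in 6 of 13 alternative settings, and with the mouse as a block its adjusted p was 0.0876. Eny2 was not called, at 97.3 to 151 RPM and 93.5 to 119 RPM. Atxn7 was not called either, at 7.15 to 10.6 RPM and 4.39 to 8.53 RPM. The listed partners Atxn7l1 and Atxn7l2 were not called. They were at 10.8 to 23.3 against 8.87 to 10.4 RPM and at 6.48 to 9.53 against 10.5 to 14.1 RPM. The related gene Atxn7l3b, on the list of partners but not part of the module, was also not called, at 101 to 157 and 131 to 178 RPM.

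Usp16, which removes ubiquitin from histone H2A, was at 198, 158 and 124 RPM in Fresh MuSCs and at 79.8, 70.9 and 74.3 RPM in Myoblasts. The groups were apart, and the log2 fold change was -1.06 ± 0.21 (adjusted p = 0.00418). Usp7, which acts on Mdm2 and p53, fell from 54.3 to 91.2 RPM to 16.3 to 42.7 RPM (-1.24 ± 0.37, adjusted p = 0.0238). Usp21, another histone H2A enzyme, rose from 24.6 to 47.6 RPM to 53.8 to 64.6 RPM (0.77 ± 0.27, adjusted p = 0.0438). Usp3, Usp42, Usp44 and Usp49 were not called.

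**Figure D3:**
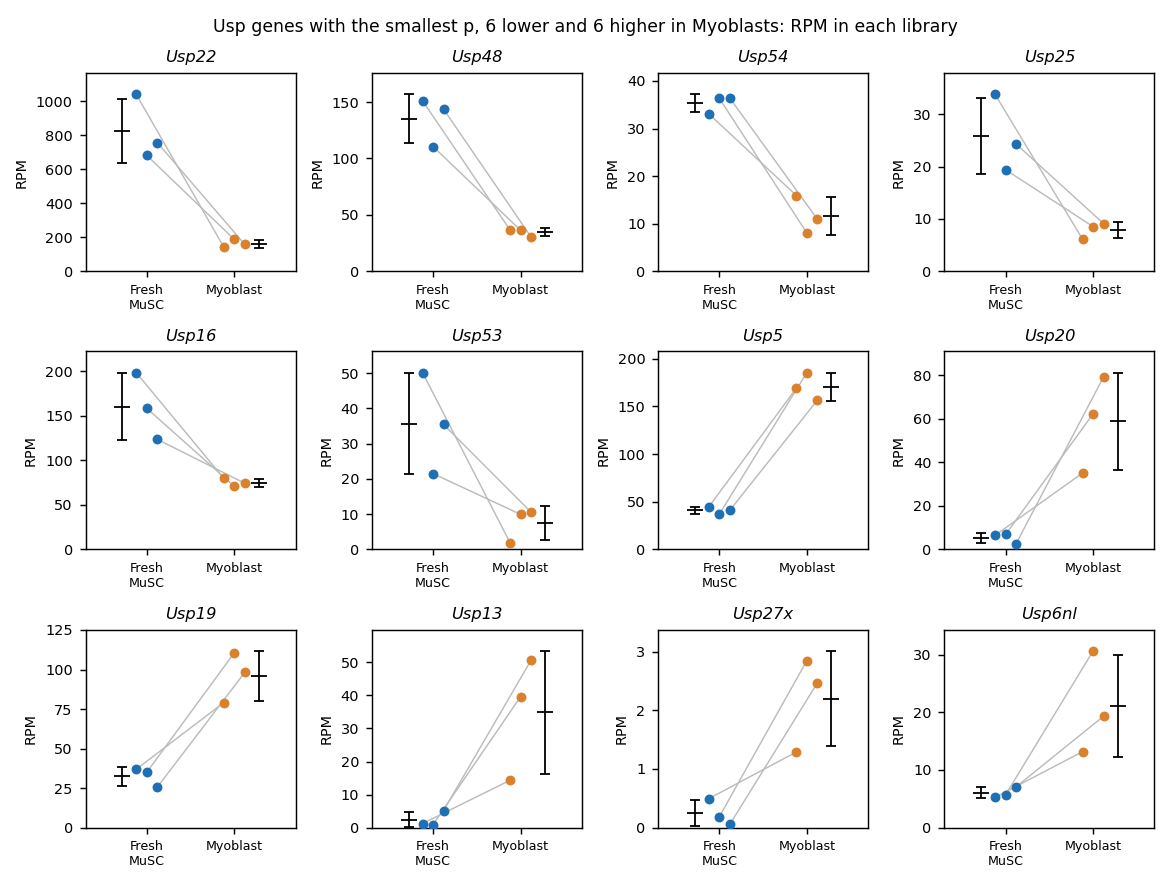
RPM of 12 Usp genes in each library of Fresh MuSCs (blue) and Myoblasts (orange), with lines joining libraries of the same number and black bars for the mean ± SD (n = 3). The 6 genes that fell and the 6 that rose with the smallest p are shown, each with groups that do not overlap.

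Of the 7 genes for endosomes and membrane receptor traffic, 3 rose and 1 fell. Usp20 (chr2:30871967-30913598, plus strand), known for receptor recycling, was at 6.51, 6.93 and 2.66 RPM in Fresh MuSCs and at 35.1, 62.4 and 79.4 RPM in Myoblasts. The lowest myoblast library was far above the highest MuSC library, with a log2 fold change of 3.24 ± 0.41 (adjusted p = 0.000356). Its paralog Usp33 was at 75.2 to 90.2 RPM in Fresh MuSCs and 48.5 to 62.6 RPM in Myoblasts, just outside the threshold (-0.56 ± 0.20, adjusted p = 0.0503). The members of this pair thus had fold changes of opposite sign, and Usp33 shares sequence with other genes as given above.

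Usp8, which protects receptors at endosomes together with the adaptor Stam, rose from 65.4 to 75.7 RPM to 87.8 to 137 RPM (0.66 ± 0.22, adjusted p = 0.0364). Stam also rose, from 94.5 to 122 RPM to 160 to 183 RPM (0.63 ± 0.18, adjusted p = 0.0223; 0.0494 with the mouse as a block and up to 0.0960 without Myoblast 05), and Stam2 was not called (adjusted p = 0.0793). Usp6nl, the Rab GTPase activator, was at 5.25, 5.71 and 7.08 RPM in Fresh MuSCs and at 13.2, 30.6 and 19.3 RPM in Myoblasts (1.58 ± 0.36, adjusted p = 0.00694). Usp9x, a large X-linked enzyme with many substrates, was at 125 to 128 RPM in Fresh MuSCs and at 72.0 to 89.3 RPM in Myoblasts. The groups were apart, and the change was small (-0.62 ± 0.18, adjusted p = 0.0225). Usp2 and Usp32 were not called, at 107 to 224 against 67.3 to 104 RPM and at 11.7 to 24.5 against 6.30 to 14.2 RPM.

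Of the 5 genes for DNA repair and the cell cycle, Usp37 and Usp45 fell and Usp47 rose. Usp37, which stabilises cyclin A, was at 144, 127 and 130 RPM in Fresh MuSCs and at 111, 49.8 and 54.8 RPM in Myoblasts. Myoblast 04 was close to the MuSCs and the other two were far below (-0.98 ± 0.30, adjusted p = 0.0267). Usp45, which acts on the repair nuclease Ercc1-Xpf, fell from 12.7 to 14.1 RPM to 4.42 to 7.79 RPM (-1.08 ± 0.31, adjusted p = 0.0205). Usp47, a paralog of Usp7 that acts on DNA polymerase beta, rose from 94.6 to 124 RPM to 141 to 184 RPM (0.62 ± 0.20, adjusted p = 0.0306). With the mouse as a block its adjusted p was 0.0645. Usp28, a paralog of Usp25 that stabilises Myc, was at 78.9, 59.5 and 51.3 RPM in Fresh MuSCs and at 46.3, 130 and 200 RPM in Myoblasts. The myoblast libraries lay on both sides of the MuSCs, and the gene was not called (adjusted p = 0.213). Usp29 was not called.

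Among the 4 genes known for TGF-beta and Wnt signaling, Usp11 rose and the others were not called. Usp11 (chrX:20570133-20586781, plus strand; GRCm39) was at 19.8, 24.0 and 29.6 RPM in Fresh MuSCs and at 70.0, 48.9 and 41.9 RPM in Myoblasts, with groups apart (1.09 ± 0.27, adjusted p = 0.0115). Its paralogs, which act on TGF-beta receptors and Smads, were not called. Usp4 was at 92.9 to 112 and 130 to 149 RPM (0.44 ± 0.18, adjusted p = 0.0707), and Usp15 at 125 to 202 and 113 to 132 RPM (-0.28 ± 0.22, adjusted p = 0.323). Usp34, which acts on axin, had a log2 fold change of -0.38 ± 0.23.

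The 3 enzymes that need the activator Wdr48, namely Usp1, Usp12 and Usp46, were not called. Their log2 fold changes were -0.16 ± 0.30, 0.07 ± 0.50 and -0.50 ± 0.29. Wdr48 itself rose from 21.3 to 31.2 RPM to 33.9 to 56.1 RPM (0.79 ± 0.27, adjusted p = 0.0411), with an adjusted p of 0.0838 with the mouse as a block and of 0.158 without Myoblast 05. Of the proteins that bind Usp12 and Usp46 together with Wdr48, Dmwd rose from 9.73 to 23.1 RPM to 39.6 to 63.2 RPM (1.77 ± 0.34, adjusted p = 0.00328) and Wdr20 was not called (-0.10 ± 0.19).

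Of the 3 genes for RNA, the ribosome and the nucleolus, the splicing factor gene Usp39 rose, from 25.2 to 32.6 RPM to 42.1 to 55.3 RPM (0.75 ± 0.23, adjusted p = 0.0282). Usp10, which works on stalled ribosomes and binds the stress granule protein G3bp1, was just outside the threshold with groups apart, at 54.2 to 86.1 and 87.6 to 143 RPM (0.70 ± 0.25, adjusted p = 0.0520). G3bp1 rose from 162 to 211 RPM to 414 to 629 RPM (1.45 ± 0.21, adjusted p = 0.000716). Usp36, a nucleolar enzyme, was at 17.3 to 28.6 and 16.2 to 27.9 RPM.

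Of the 12 remaining members, 3 fell and 1 rose. Usp48 (GRCm39 chr4:137321066-137385848, plus strand) was at 151, 111 and 144 RPM in Fresh MuSCs and at 36.6, 36.4 and 30.4 RPM in Myoblasts. All 3 myoblast libraries lay close together and far below the MuSCs (-1.93 ± 0.21, adjusted p = 0.000143). Usp53 and its paralog Usp54 both fell. Usp53 was at 50.2, 21.5 and 35.5 RPM and then at 1.92, 9.97 and 10.6 RPM (-2.28 ± 0.55, adjusted p = 0.0101). Usp54 was at 33.1, 36.3 and 36.4 RPM and then at 15.9, 8.06 and 11.0 RPM (-1.57 ± 0.29, adjusted p = 0.00284). The ranges of both were apart. Usp38 rose from 8.74 to 19.8 RPM to 22.7 to 39.7 RPM (1.04 ± 0.35, adjusted p = 0.0419), and its adjusted p with the mouse as a block was 0.0820. Its paralog Usp35 was not called, at 0.705 to 3.07 and 1.36 to 1.96 RPM.

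The 26 members that were not called had log2 fold changes from -0.80 (Usp2) to 0.77 (Usp28). For 13 of them the 95% interval lay within -1 and 1, so changes of more than 2-fold on this scale were outside it. Groups did not overlap for 10 of the 26 in spite of the missed call. In all, 33 members (67.3%) had groups without overlap, against 55.2% of all genes tested. An absolute log2 fold change of 1 or more together with the call was reached by 17 members, or 34.7% of the 49, and by 31.8% of all genes tested.

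Summed over the family, Usp transcripts were at 3705, 2943 and 3034 RPM in Fresh MuSCs and at 2473, 2793 and 2656 RPM in Myoblasts. On this scale every MuSC library was above every myoblast library. As a percentage of each library's own total the groups overlapped, at 0.278% to 0.347% in Fresh MuSCs and 0.255% to 0.297% in Myoblasts. Usp22 alone made up 28.1%, 23.2% and 24.9% of the summed Usp transcripts in Fresh MuSCs and 5.77%, 6.71% and 5.93% in Myoblasts. Without Usp22 the sums were 2261 to 2665 RPM and 2331 to 2606 RPM, and the groups overlapped. The mean without Usp22 was 2401 ± 229 RPM in Fresh MuSCs and 2478 ± 139 RPM in Myoblasts (SD, n = 3).

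**Figure D4:**
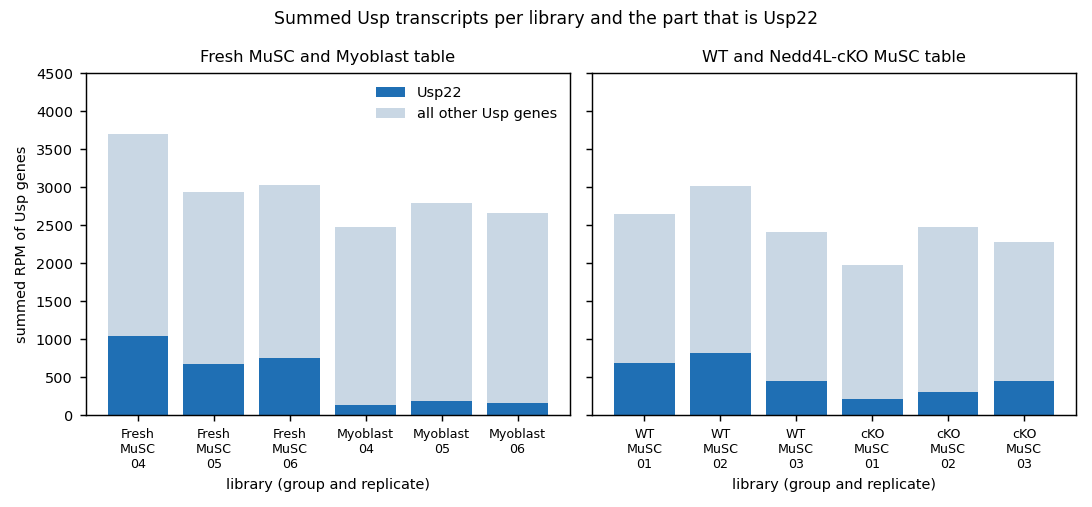
Summed RPM of all listed Usp genes in each of 12 libraries, with Usp22 in dark blue and the other Usp genes in light blue. Usp22 makes up 23.2% to 28.1% of the sum in Fresh MuSCs and 5.77% to 6.71% in Myoblasts, and in the second table, which was normalized on its own, from 18.7% to 27.1% in WT and 10.7% to 19.8% in Nedd4L-cKO MuSCs.

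Other genes of the same pathway were taken from fixed lists. Of 37 genes listed as other deubiquitinases, 35 were tested, and 7 rose and 13 fell. The list also held Cyld and Uspl1, whose symbols did not match the rule for members, and neither was called. The 20 called were 57.1% of those tested, against 42.8% of all genes, and the 13 that fell were 37.1%, against 20.6%. The count of 20 called was 13 without Fresh MuSC 05, where the count over all genes fell as well. The largest changes were those of Tnfaip3 (A20, an inhibitor of NF-kappaB signaling), which fell from 42.0 to 69.4 RPM to 5.33 to 10.7 RPM, of Zranb1, which fell from 79.6 to 126 RPM to 15.4 to 27.7 RPM, and of Mpnd, which fell from 157 to 210 RPM to 33.8 to 63.7 RPM. Otud6a was not listed and Otud7a was below the limit for testing. Of 15 partner proteins of Usp enzymes, 5 rose, as given above for Atxn7l3, Stam, Wdr48, Dmwd and G3bp1, and 10 were not called. The 5 called were 33.3% of those tested, against 42.8% of all genes called in either direction. As all of them were higher, 33.3% also stands beside the 22.2% of all genes called higher. The count was 2 without Fresh MuSC 05 or without Myoblast 05, 3 without Fresh MuSC 06 or without Myoblast 06, and 3 with the mouse as a block. The median log2 fold change was 0.07 over the other deubiquitinases and 0.23 over the partners, beside 0.04 over all genes tested.

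The second comparison asks whether loss of Nedd4L activity in MuSCs goes with a different Usp repertoire. No member passed the test. Of all 15304 genes tested 0.784% were called, and the lowest adjusted p among the 47 members was 0.170. At an unadjusted limma p under 0.05 there were 6 members, or 12.8%, against 14.6% of all genes. Of these 2 were higher and 4 lower in cKO, where 7.51% and 7.13% of all genes were. Groups did not overlap for 10 members, or 21.3%, against 19.3% of all genes. Here 3 were higher and 7 lower, beside 9.75% and 9.59% of all genes. In an exact permutation test of a single gene, 3 libraries against 3 give a smallest p of 0.1. Log2 fold changes ran from -1.04 to 1.01, 32 below 0 and 15 above, with a median of -0.11 against 0.0015 over all genes. For 24 members the 95% interval lay within -1 and 1.

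Usp22 had the lowest fold change. It was at 693, 817 and 451 RPM in WT and at 212, 301 and 452 RPM in Nedd4L-cKO MuSCs. WT 03 and cKO 03 had nearly the same level, so the groups touched. The log2 fold change was -1.04 ± 0.32, with a 95% interval from -1.74 to -0.34 (unadjusted p = 0.00708, limma adjusted p = 0.172). Without cKO 03 it was -1.32 with an adjusted p of 0.0765, and without WT 02 it was -0.86 with an adjusted p of 0.491. Atxn7l3 was at 4.05 to 5.20 RPM in WT and at 1.26 to 3.12 RPM in Nedd4L-cKO MuSCs, without overlap (adjusted p = 0.303). Eny2 was at 164 to 216 and 222 to 357 RPM (adjusted p = 0.390). Atxn7l2 was at 2.30 to 5.39 and 0.567 to 2.80 RPM, with overlapping groups (-1.25 ± 0.44, adjusted p = 0.233). The log2 fold changes of Atxn7 and Atxn7l1 were 0.31 ± 0.30 and -0.12 ± 0.29, and neither was called.

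Usp28 had the lowest p. It was at 46.6, 35.2 and 28.8 RPM in WT and at 22.4, 14.7 and 18.4 RPM in Nedd4L-cKO MuSCs. The groups were apart, with a log2 fold change of -0.95 ± 0.29 (adjusted p = 0.170). Usp11 was at 19.6, 17.5 and 18.5 RPM in WT and at 6.87, 9.98 and 14.8 RPM in Nedd4L-cKO MuSCs (-0.82 ± 0.33, adjusted p = 0.284), and the WT libraries were close together while the cKO libraries spread below them. Usp44, a histone H2B enzyme, was barely present, at 0.387 to 2.53 RPM in WT and 0 to 0.587 RPM in Nedd4L-cKO MuSCs, and it shares much sequence with Metap2.

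Usp50 and Usp32 were the members above 0 at an unadjusted p under 0.05. Usp50 was at 5.89, 4.27 and 8.45 RPM in WT and at 19.2, 12.4 and 9.33 RPM in Nedd4L-cKO MuSCs (1.01 ± 0.37, adjusted p = 0.245). It overlaps Usp8 on the other strand, with little shared transcript sequence as given above. Usp8 was at 56.9 to 78.8 and 39.7 to 68.5 RPM. Usp32, an enzyme of late endosomes, was at 13.4, 12.6 and 10.2 RPM in WT and at 16.8, 24.8 and 18.8 RPM in Nedd4L-cKO MuSCs (0.69 ± 0.29, adjusted p = 0.313). In both genes the lowest cKO library was above the highest WT library.

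**Figure D5:**
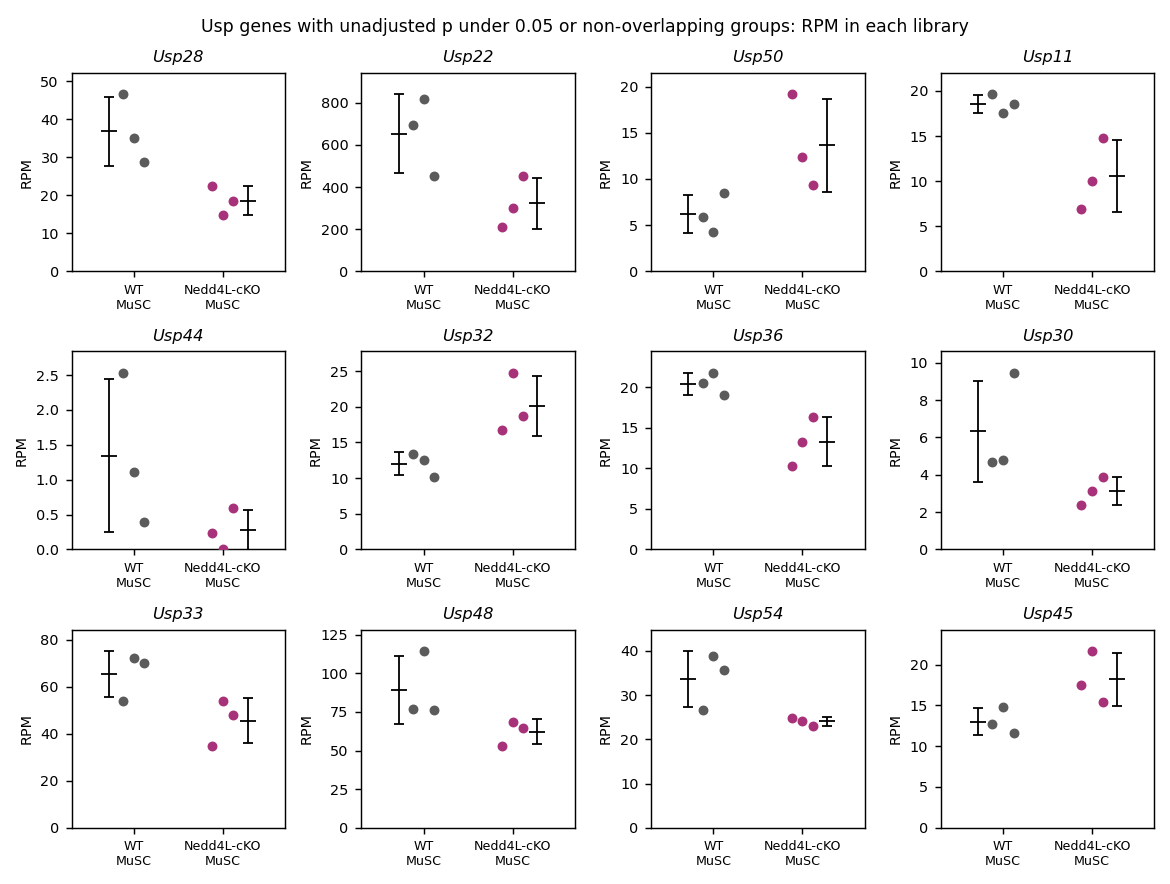
RPM of the 12 Usp genes with an unadjusted limma p under 0.05 or with groups that do not overlap, in each library of WT (grey) and Nedd4L-cKO MuSCs (purple), with black bars for the mean ± SD (n = 3). None passed the test after adjustment, with adjusted p values from 0.170 upward, and the groups overlap for Usp22 and Usp44.

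The other genes without overlap were Usp36 (19.0 to 21.7 RPM in WT, 10.3 to 16.3 RPM in cKO), Usp30 (4.71 to 9.47 and 2.37 to 3.88 RPM), Usp33 (54.1 to 72.3 and 34.9 to 53.8 RPM), Usp48 (76.5 to 115 and 53.1 to 68.8 RPM) and Usp54 (26.7 to 38.8 and 23.0 to 24.9 RPM), all lower in cKO, and Usp45 (11.6 to 14.8 and 15.4 to 21.7 RPM), higher in cKO. Their adjusted p values were 0.364 to 0.515.

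The 3 members with the largest increases in Myoblasts were not called in cKO MuSCs. Usp5 was at 25.1 to 32.8 RPM in WT and 18.8 to 26.9 RPM in cKO (-0.43 ± 0.27). Usp20 was at 1.77 to 6.47 and 1.27 to 3.92 RPM, far from the 35.1 to 79.4 RPM of Myoblasts in the other table. Usp13 was at 0.208 to 1.88 and 0.607 to 5.45 RPM (0.91 ± 0.49, with a 95% interval from -0.18 to 1.99). Levels across the tables are set side by side only, since each table was normalized on its own.

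Of the 13 members that rose in Myoblasts, 4 were above 0 and 9 below 0 in cKO MuSCs, with a median log2 fold change of -0.14. Of the 10 that fell, 4 were above 0 and 6 below, with a median of -0.22. Of the 24 that were not called and could be tested in both tables, 7 were above and 17 below, with a median of -0.10. The comparisons used different mice and shared no libraries.

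Summed Usp transcripts were at 2654, 3015 and 2409 RPM in WT and at 1980, 2474 and 2287 RPM in Nedd4L-cKO MuSCs, and the ranges overlapped. As a percentage of each library's own total the ranges were narrowly apart, at 0.251% to 0.326% in WT and 0.170% to 0.247% in cKO. Usp22 made up 26.1%, 27.1% and 18.7% of the sum in WT and 10.7%, 12.2% and 19.8% in cKO. Without Usp22 the sums were 1958 to 2198 and 1768 to 2173 RPM. Of the other deubiquitinases and the partners, 0 of 35 and 0 of 15 were called in limma, and 4 and 3 had an unadjusted limma p under 0.05. Of all genes tested, 0.784% were called and 14.6% had an unadjusted limma p under 0.05, here and for the markers below. Of 7 mature fiber markers none was called in limma, and 5 had an unadjusted p under 0.05. Their summed level, with Acta1 as the largest part in each library, was 187 to 383 RPM in WT and 467 to 630 RPM in cKO. Of the 6 genes listed as myoblast markers, Ccnb1 was called higher in cKO, from 9.93 to 32.8 RPM to 63.4 to 91.6 RPM (2.20 ± 0.40, limma adjusted p = 0.0325). Cdk1 (15.9 to 39.8 and 49.3 to 104 RPM) and Top2a (11.2 to 42.8 and 44.1 to 86.8 RPM) were not called, with groups apart, and Mki67, Myod1 and Myog overlapped. None of the 8 MuSC markers was called in limma, and 2 had an unadjusted p under 0.05. Among these Calcr was at 254 to 304 RPM in WT and 117 to 204 RPM in cKO, and Spry1 at 201 to 338 and 56.2 to 147 RPM, while Vcam1 was at 425 to 574 and 658 to 815 RPM. The endothelial list gene Tek, also not called, was at 40.9 to 79.6 and 19.1 to 28.4 RPM. Fibroblast markers summed to 1296 to 2714 RPM in WT and 1339 to 3374 RPM in cKO, and none was called. Among them Dcn varied widely between libraries, at 193 to 1237 RPM in WT and 210 to 2208 RPM in cKO. Col3a1 was at 1052 to 1085 and 970 to 1226 RPM. The part of these markers in the values of single Usp genes was not tested.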

How the data were processed

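The deposited values are a signal: Kallisto 0.46.1 estimates on the basic GENCODE annotation, which the authors brought to gene level through tximport and normalized in DESeq2, for each comparison separately. Another 18 columns of single samples were not used, 12 of RPM and 6 that repeat the normalized counts. Columns with the authors' own fold changes and p-values were not used either. Groups came from the sample labels, and the labels give no batch.

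RPM values are normalized counts divided by the mean total of a table's 6 libraries and multiplied by 1000000. Genes needed 10 or more normalized counts in 3 or more libraries. Group was the single term of the limma 3.58.1 fit (R 4.3.3; lmFit, eBayes with trend and robust options) on log2(RPM + 1), and p-values were adjusted by Benjamini-Hochberg across each table. A fold change on this scale understates the change of low genes. Fresh MuSC and Myoblast libraries of the same number in the labels were read as the same mouse, which is an inference. The correlations of their deviations from the group means were -0.0314, -0.00502 and 0.018. For libraries of different numbers they were -0.0728 to 0.0496. A fit with the mouse as a block was an alternative. Gene positions and exonic lengths came from GENCODE M39 on GRCm39, the build of the authors' annotation in a later release, and sequence sharing was counted over 31-base stretches of its transcripts. Roles of the Usp genes and lists of other cell types' markers, deubiquitinases and partners were hand-written. A further list of genes is not reported here. Members and lists were chosen with earlier results of these data known.

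Named were all Usp genes called in either comparison, and those with an unadjusted p under 0.05 or groups without overlap between Nedd4L-cKO and WT MuSCs. The 8 highest and 5 lowest per kilobase in Fresh MuSCs, members below the filter and paralogs were named too. From the other lists these were the 3 largest changes in each and some, not all, partners of a described gene. Nedd4l was named as well. Promoter windows were those of RefSeq (GRCm38.p6), with 5 of the 23 called members without one. Python 3.11.15, pandas 2.3.3 and matplotlib 3.10.9 were used.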

Additional observations from a re-analysis of the deposited data

How the results depend on the processing

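Calls between Myoblasts and Fresh MuSCs depended most on single libraries. When single libraries were omitted, the count of Usp genes ranged from 14 to 22 (23 with all libraries), 7 to 13 of them higher and 6 to 10 lower. It was 14 without Fresh MuSC 05 (8 higher, 6 lower) and 15 without Myoblast 05 (7 higher). The count over all genes tested fell too, from 6566 with all libraries to between 4593 and 6398. Of the 23 members, 13 passed the threshold in every alternative that tested them: Usp5, Usp11, Usp13, Usp16, Usp19, Usp20, Usp22, Usp25, Usp27x, Usp48, Usp53, Usp54 and Usp6nl. Usp27x was not tested in the alternative that required 10 normalized counts in every library, and it met the main filter only through the Myoblast libraries. No value changed direction. With the mouse as a replicate block, 21 of the 23 were called. The block lost Usp38 (adjusted p = 0.0820) and Usp47 (adjusted p = 0.0645), called 3 of the 5 partners (without Atxn7l3 and Wdr48) and changed no other call among the Usp genes that had passed. Each library scaled to its own total lost Usp9x, and limma without the trend and robust options lost Usp8, Usp21 and Usp47. A fold limit of at least 1 on the log2 scale left 17 Usp genes and 3 partners. Over the fits that each left out a library, other deubiquitinases ranged from 13 to 20 and partners from 2 to 5.

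Between Nedd4L-cKO and WT MuSCs no Usp gene was called under any of the 13 alternative fits, the replicate block included, where numbers do not mark shared mice. At an unadjusted limma p under 0.05 there were 6 (2 higher, 4 lower), with 4 other deubiquitinases and 3 partners, beside 14.6% of all genes. Nedd4l itself kept its direction in all of these fits and passed the threshold in 4 of 13. Of the 8 genes highest per kilobase in Fresh MuSCs, 6 stayed among the 8 highest with the length of the longest transcript in place of exonic length. Depth could not be known from normalized counts, so the smallest change that could be detected in low genes such as Usp27x, Usp43 and Usp44 is not given.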
